A study of Mus musculus with 6 samples.

Results

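The genes described here are the replication-dependent histone genes of mouse, taken by symbol: H1f1 to H1f5, the H2ac, H2bc, H3c and H4c genes that carry a number and nothing more, and the older Hist symbols. The deposited count table lists 59 such genes among 24181, of which 5 encode linker histone H1, 18 encode H2A, 14 encode H2B, 11 encode H3 and 11 encode H4. The group was selected on its CPM in these same libraries, in which parental replicate 3 was already known to be low. Its levels are therefore given as a description, and no test of them is reported. The cells are MC38, a mouse colon adenocarcinoma line grown in DMEM, and 2 groups of 3 samples are labelled: parental cells, with the genotype WT, and cells that express the N153S mutant of STING, an adaptor protein of cytosolic DNA sensing. Oligo-dT primed the cDNA, and sequencing read its 3' end. Only the 3 parental libraries could be tied to samples. The STING-N153S samples, and whether their libraries share the pattern described below, were not analysed here. The deposited annotation numbers the parental libraries as biological replicates, but nothing used here says that they were separate cultures, so their spread may be technical.

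Replication-dependent histone genes supply the bulk of new histone while DNA is being copied. They lie in clusters, mostly lack introns, and are switched on together at the entry into S phase through NPAT. Their mRNAs normally end in a short stem-loop instead of a poly(A) tail, which SLBP binds and which sets how the RNA is cut, translated and degraded. Some of these genes can also use a poly(A) site further downstream. Oligo-dT, the primer used here, anneals to stretches of A, so a count in these libraries comes from a tail or from an internal A stretch and is not a direct measure of all histone mRNA.

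Sequencing gave 3358908, 4020023 and 3210024 counts for parental replicates 1 to 3. Each level is in CPM, a gene's counts scaled to the total of its library. A count of 3, taken as the floor, is 0.893, 0.746 and 0.935 CPM. The libraries hold few signs of the labelled tissue: of 11 intestinal epithelium markers 6 are in the table, and 1 of them, Axin2, reached a mean of 1 CPM, while Cdx1 had no count. In replicate 3 the mitochondrial ribosomal RNA mt-Rnr1 was also lower, at 2950, 3208 and 2309 CPM in replicates 1 to 3, whereas mt-Rnr2 had 6732, 6349 and 6307 CPM. Fibroblast markers summed to 173 to 197 CPM, myeloid markers to 22.4 to 23.5 CPM and lymphocyte markers to 0 to 0.312 CPM in the 3 libraries, and none of the 4 fibroblast genes and 1 myeloid gene with enough counts to test varied between libraries. Of the myeloid markers, Cd14 had 22.6, 21.1 and 22.4 CPM in replicates 1 to 3 and made up most of the sum. Cd68 had 10 counts and Ptprc 1 over the 3 libraries, and Csf1r and Lyz2 had no count.

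The members' RNA ends are shown first, because the stem-loop defines this class of gene and the library method reads the 3' end. All members but 1, H2ac14, were matched to a GENCODE M21 transcript on GRCm38. The transcripts of 39 of the 58 matched genes held, after the stop codon, a stem of the form GGNNNT, a loop of the form TNTN and a closing arm of the form ANNNCC, searched on the transcript strand, with the 6 bases of the stem fully paired. In 10 members with contrasting levels the site reads as follows, 5′ to 3′ on the transcript strand, with the 16 bases of the stem-loop in capitals and 7 flanking bases on each side.
H1f3: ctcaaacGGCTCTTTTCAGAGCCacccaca
H1f4: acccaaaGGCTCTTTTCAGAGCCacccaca
H2ac4: aaacaaaGGCTCTTTTCAGAGCCacccaca
H2ac8: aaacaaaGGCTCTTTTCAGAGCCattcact
H2ac20: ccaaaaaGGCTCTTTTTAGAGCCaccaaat
H2bc11: atccaaaGGCTCTTTTCAGAGCCacgcaca
H3c2: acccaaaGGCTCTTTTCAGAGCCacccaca
H3c3: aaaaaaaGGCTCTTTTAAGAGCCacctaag
H4c4: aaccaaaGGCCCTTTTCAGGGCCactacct
H4c9: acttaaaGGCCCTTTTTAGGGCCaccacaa

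The same stem-loop, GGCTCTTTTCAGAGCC, was found in 22 members of the H1, H2A, H2B and H3 families. H4 genes carried another form, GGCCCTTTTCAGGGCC, in 5 members, and 5 members of the H2B and H3 families carried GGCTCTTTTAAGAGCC. Over all 21901 coding genes in the transcript set, the longest coding transcript held the pattern in 5.21% and with a fully paired stem in 0.310%. That search covered the whole transcript, whereas the members were searched only after the stop codon, so the shares are not like for like. On GRCm38, the capitals of H2ac4 lie at chr13:23751572-23751587 on the plus strand and those of H2ac8 at chr13:23570668-23570683 on the minus strand. Those of H4c4 lie at chr13:23581950-23581965 on the plus strand and those of H4c9 at chr13:22040966-22040981 on the minus strand. Each of these 4 sites is in the 3′ UTR of a gene with 1 exon. H1f4 and H3c2 print the same 30 bases, and H2ac4 and H2ac8 share all printed bases up to the end of the stem-loop.

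Of the 58 matched genes 50 lie on chromosome 13 and 8 on chromosome 3. On chromosome 13, 29 members stand between 23531050 and 23934851 and 20 between 21715763 and 22043676. Hist1h2al lies apart, at 51202727 to 51203065, and is a processed pseudogene in the annotation. The 8 genes on chromosome 3 stand between 96219865 and 96270132. The matched genes therefore lay in these stretches of chromosomes 13 and 3, apart from 1 gene model outside them. Histone genes such as H4f16 and H2aw have symbols that the rule does not take.

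Most of the members had few counts. No member was without a count over the 3 libraries, 35 had at least 20 counts in all and 17 had at least 100. Of the 24 members under 20 counts, 5 had no more than 2: H2ac14, H2ac19, H2bc7, H3c10 and Hist1h2ao. Just above the limit of 20 stood H2ac11 and H3c11 with 21 counts and H2bc12 with 22, and just under it H2bc9, H3c7 and H4c6 with 19 each. Members under 20 counts were too sparse for a useful ratio at this depth, and ratios are given for the other 35.

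**Figure D1:**
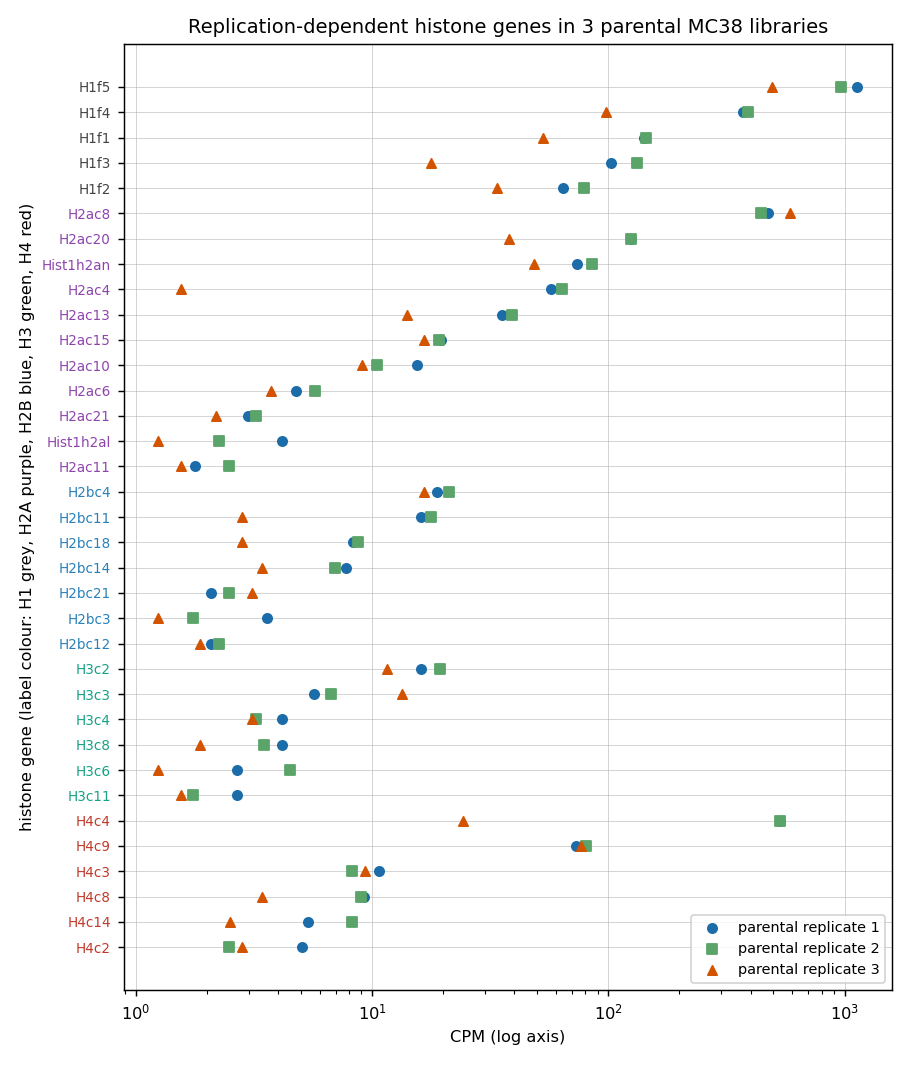
CPM (log axis) of each histone gene with at least 20 counts, one row a gene and one symbol a parental library, with the families told apart by label colour. Replicate 3 (orange triangles) sits left of the other libraries for 29 of 35 genes, while H2ac8 and H3c3 have it at the right.

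All members together made up 0.338%, 0.328% and 0.162% of the counts of replicates 1 to 3. Their summed level was 3381, 3279 and 1619 CPM, or 2760 ± 989 CPM on average (SD, n = 3). Replicates 1 and 2 lay close together and replicate 3 below both. The ratio of replicate 3 to replicates 1 and 2 pooled was 0.487, with an exact 95% interval of 0.473 to 0.502. That interval, like the others here, covers counting error only. In RNA from a bulk culture, fewer cells in S phase, less histone RNA per cell and a technical difference between libraries cannot be told apart. The 33 S phase genes listed for comparison summed to 4914, 4948 and 4888 CPM in the same libraries, a ratio of 0.991. What lowered the sum in replicate 3 was not tested.

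Of the 35 members with at least 20 counts, 29 (82.9%) had their lowest CPM in replicate 3, against 35.7% of all 10804 genes with at least 20 counts. Replicate 3 was the highest library for 3 members, and for 34.8% of all such genes. In 18 members (51.4%) replicate 3 stood at or under 0.5 of replicates 1 and 2, which was so for 1.90% of all such genes. Of the 17 members with at least 100 counts 10 did so, against 0.260% of the 7705 genes with at least 100 counts. The median ratio was 0.493 over the members and 0.997 over all such genes. Replicates 1 and 2 did not part in this way: the members' median ratio of replicate 2 to replicate 1 was 1.05, with a range of 0.487 to 1.67. These counts describe the pattern for which the genes were chosen, and nothing is read from them.

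**Figure D2:**
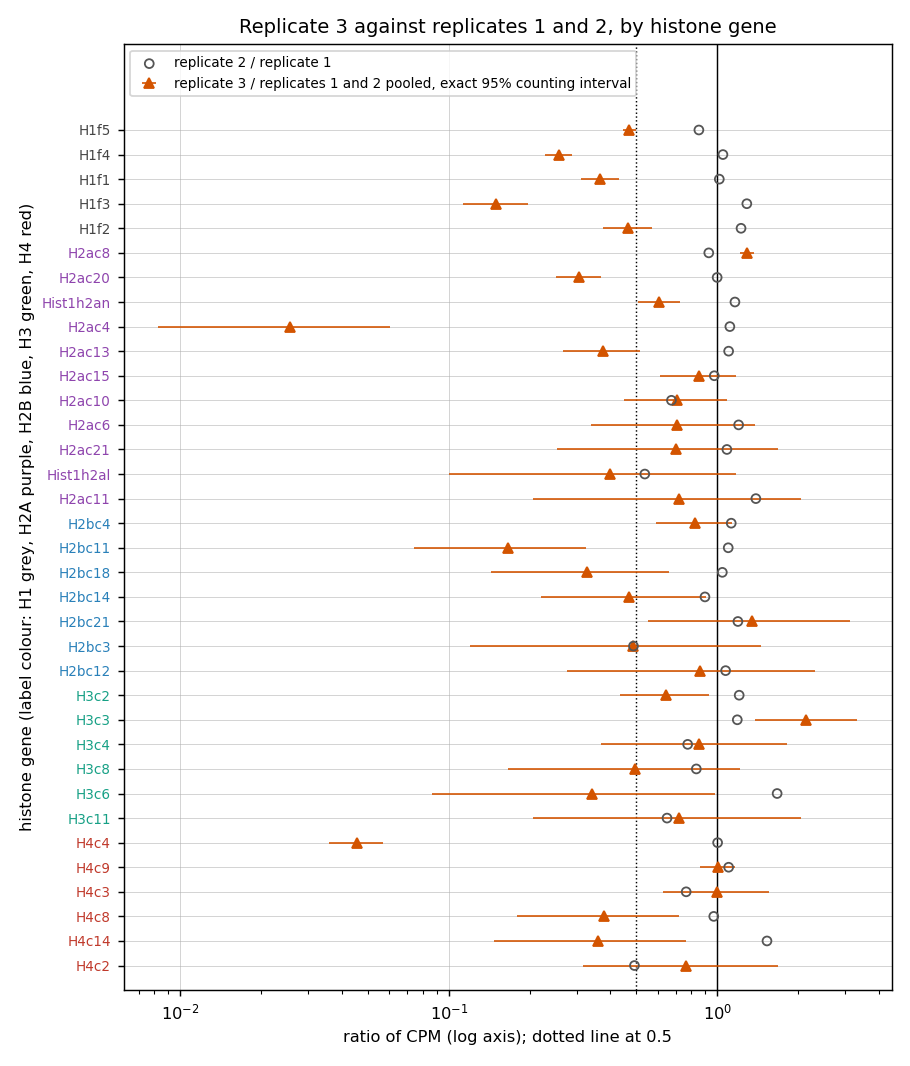
Ratio of CPM (log axis) in replicate 3 to replicates 1 and 2 pooled, with its exact 95% counting interval (triangles and bars), and in replicate 2 to replicate 1 (open circles), for the 35 members with at least 20 counts. The ratios of replicate 3 spread from 0.0257 for H2ac4 to 2.15 for H3c3, while the open circles stay between 0.487 and 1.67.

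The linker histone genes were low in replicate 3 as a whole family. H1 binds the DNA between nucleosomes, and the 5 genes summed to 1814, 1714 and 693 CPM in replicates 1 to 3, a ratio of 0.394 (0.377 to 0.412). Each of the 5 had its lowest level in replicate 3, at or under 0.5 of the other libraries. H1f5, which lies on chromosome 13 at 21779883 to 21780625, gave 61.5% of the family's CPM. Its level was 1134, 969 and 492 CPM, a ratio of 0.471 (0.446 to 0.497). H1f4 had 372, 390.05 and 97.8 CPM, a ratio of 0.256 (0.227 to 0.288). In both genes replicate 3 lay far below the other libraries. Replicates 1 and 2 of H1f5 also differed by more than counting error, at a ratio of replicate 2 to replicate 1 of 0.854 (0.817 to 0.893), while for H1f4 it was 1.05 (0.974 to 1.13).

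H1f3 was the member of the family with the smallest ratio. It had 102, 132 and 17.8 CPM, or 343, 529 and 57 counts, and replicate 3 stood at 0.150 (0.113 to 0.197) of the others. H1f1 and H1f2 were less far apart. H1f1 had 142, 145 and 52.6 CPM, a ratio of 0.367 (0.310 to 0.432), and H1f2 had 64.3, 78.9 and 33.6 CPM, a ratio of 0.466 (0.375 to 0.574). Replicate 3 did not overlap the other libraries in either gene. The intervals of H1f3 and H1f5 do not meet, so within the family the ratios differed by more than counting error.

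The H2A family looked almost level between libraries as a sum, and that sum hid opposite patterns. H2A pairs with H2B on the faces of the nucleosome. Its 18 genes summed to 819.6, 801 and 731 CPM, a ratio of 0.902 (0.860 to 0.946). H2ac8 alone gave 64.0% of the family's CPM and went the other way, with 475, 442 and 589 CPM and a ratio of 1.29 (1.22 to 1.37). Replicate 3 was its highest library. Without H2ac8 the H2A genes summed to 345, 360 and 141 CPM in replicates 1 to 3, a ratio of 0.401 (0.362 to 0.443), close to that of the H1 family. Over all members, leaving out H2ac8 moved the ratio from 0.487 to 0.359.

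H2ac4 had the smallest ratio of all members. It had 192, 256 and 5 counts, or 57.2, 63.7 and 1.56 CPM, and replicate 3 stood at 0.0257 (0.00829 to 0.0603) of the other libraries. Replicate 3 was nearly empty of its counts, and the other libraries were close together. H2ac4 and H2ac8, which share their stem-loop and the bases before it, were therefore at the 2 ends of the family.

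H2ac20, on chromosome 3, had 125, 125 and 38.0 CPM, a ratio of 0.305 (0.250 to 0.369). H2ac13 had 35.4, 39.1 and 14.02 CPM, a ratio of 0.375 (0.267 to 0.515). Hist1h2an had 73.5, 85.6 and 48.6 CPM, a ratio of 0.607 (0.505 to 0.725). In these genes replicate 3 lay below both other libraries. H2ac10, at 15.5, 10.4 and 9.03 CPM, and H2ac15, at 19.6, 19.2 and 16.5 CPM, also had it lowest, with intervals that reach past 1. Of the 11 H2A genes with at least 20 counts, 10 had their lowest level in replicate 3 and 4 stood at or under 0.5. H2ac13 and Hist1h2an share 90.1% and 85.8% of their 50-base words with other gene models, so reads may have been split between copies.

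H2B, the partner of H2A, was counted at low levels. The 14 genes summed to 66.1, 69.2 and 37.7 CPM, a ratio of 0.556 (0.452 to 0.680), with replicate 3 below both others. H2bc11 had 16.1, 17.7 and 2.80 CPM, or 54, 71 and 9 counts, and a ratio of 0.166 (0.0740 to 0.324). H2bc4 had 18.8, 21.1 and 16.5 CPM, a ratio of 0.823 (0.590 to 1.13). Replicate 3 was lowest in both genes, by a wide margin in H2bc11 and within counting error in H2bc4. H2bc18, the third of the family by mean CPM, had 8.34, 8.71 and 2.80 CPM, a ratio of 0.328 (0.144 to 0.664). H2bc21 had the largest ratio of the family, 1.35, but its interval of 0.553 to 3.13 leaves no direction at 27 counts.

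H3, which with H4 forms the centre of the nucleosome, had the lowest sum of the families. Its 11 genes summed to 40.2, 46.5 and 35.8 CPM, and the ratio of 0.821 (0.658 to 1.02) is within counting error of 1. H3c2 had 16.1, 19.4 and 11.5 CPM, a ratio of 0.644 (0.435 to 0.934), with replicate 3 the lowest library. H3c3 ran the other way, with 5.66, 6.72 and 13.4 CPM, or 19, 27 and 43 counts, and a ratio of 2.15 (1.38 to 3.33). It was, with H2ac8 and H2bc21, 1 of the 3 members that were highest in replicate 3. H3c6 had the smallest ratio of the family, 0.341 (0.0866 to 0.977), on 31 counts, and H3c4, the third by mean CPM, had 4.17, 3.23 and 3.12 CPM.

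The H4 sum was dominated by H4c4. The 11 genes summed to 641, 648 and 122 CPM, a ratio of 0.189 (0.170 to 0.210), and H4c4 gave 77.4% of the family's CPM. H4c4 had 1791, 2150 and 78 counts, or 533, 535 and 24.3 CPM, and a ratio of 0.0455 (0.0359 to 0.0569). Replicates 1 and 2 had nearly the same level and replicate 3 lay far below. H4c9 showed no such gap, with 72.6, 80.1 and 76.9 CPM and a ratio of 1.00 (0.860 to 1.17), and its libraries overlap within counting error. H4c3, at 99 counts just under the limit for naming by count, had 10.7, 8.21 and 9.35 CPM and a ratio of 0.999 (0.628 to 1.56). Without H4c4 the H4 genes summed to 107, 113 and 97.5 CPM, a ratio of 0.882 (0.772 to 1.01), and most of that sum was H4c9. H4c8, with 9.23, 8.96 and 3.43 CPM, had a ratio of 0.377 (0.180 to 0.719), and H4c14, with 5.36, 8.21 and 2.49 CPM, had 0.361 (0.148 to 0.765). Replicate 3 was the lowest library in both, and with H4c4 they made 3 of the 6 H4 genes with at least 20 counts that stood at or under 0.5.

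**Figure D3:**
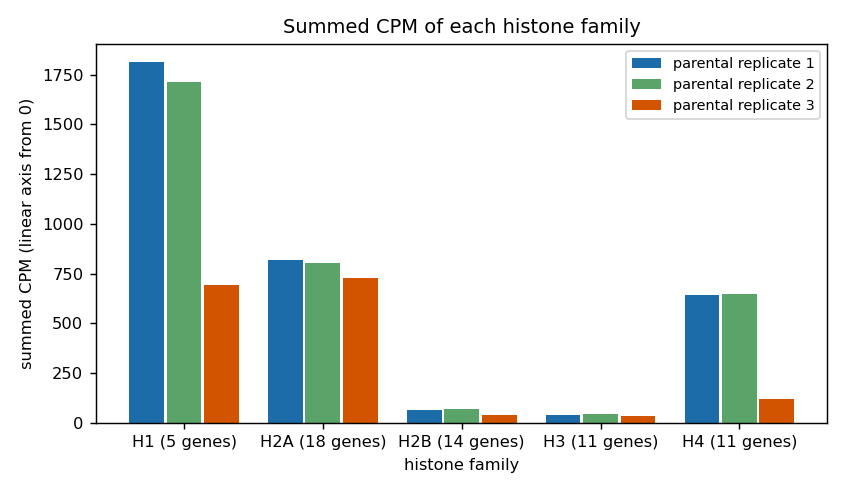
Summed CPM (linear axis from 0) of the members of each family in the 3 parental libraries, with the number of genes in brackets. Replicate 3 stands well below the others for H1 and H4, and slightly below for H2A, where H2ac8 makes up most of the bar.

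The sum over all members rested on a few genes. The 5 members with the highest mean CPM, H1f5, H2ac8, H4c4, H1f4 and H1f1, gave 77.2% of it, and their ratio of 0.490 was close to the 0.475 of the other 54. Leaving out H4c4 gave 0.571 and leaving out H1f5 gave 0.494. Without H1f5, H4c4 and H2ac8 together, the other 56 genes had 1239, 1334 and 514 CPM and a ratio of 0.399 (0.378 to 0.420). Replicate 3 was below both other libraries in each of these subsets. These counts come from tails or internal A stretches and may be split between copies, so they do not rank the genes by transcript number.

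Features of the annotated transcripts were then set beside the ratios, as a description. The 23 members with a stem-loop in the transcript and at least 20 counts had a median ratio of 0.484, and 13 stood at or under 0.5. The 12 without one had a median of 0.653, and 5 stood at or under 0.5. Of those 12, 8 end at or within 3 bases of the stop codon, where the annotation holds no 3′ UTR in which a stem-loop could be found. Such models include H1f5, H2ac13 and Hist1h2an.

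Annotated transcripts often ran past the stem-loop. The model ended 11 bases after it in H2ac4, 23 in H2bc11, 57 in H2ac20 and 74 in H3c3. It went on for 151 bases in H2ac8, 330 in H4c9, 770 in H4c4, 840 in H1f2, 1153 in H1f4 and 4884 in H1f3. The members ending within 100 bases of the loop had a median ratio of 0.488 (12 genes), and those running further 0.466 (11 genes). H4c4 and H4c9 thus both had long models and yet differed in ratio by far more than their intervals, as did H2ac4 and H3c3 with short ones.

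**Figure D4:**
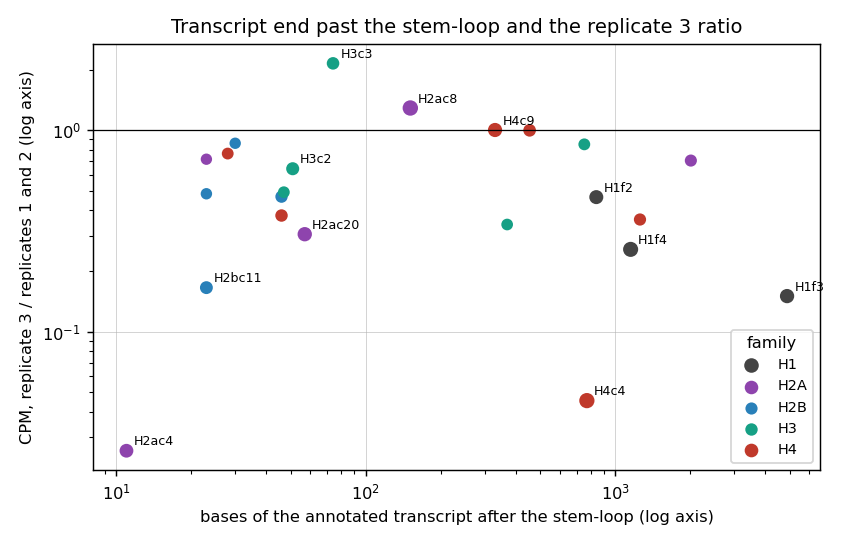
Bases of the annotated transcript after the stem-loop (log axis) against the ratio of CPM in replicate 3 to replicates 1 and 2 (log axis), for members with at least 20 counts and a stem-loop, with larger points for more counts and colours for families. Low and high ratios occur at short and long ends alike, with H2ac4 at 11 bases and H4c4 at 770 bases lowest.

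A poly(A) signal, AATAAA or ATTAAA, within 60 bases of the transcript end was found in 6 members with at least 20 counts, H2ac8, H4c9, H1f2, H4c8, H4c14 and H2bc21. Their median ratio was 0.734 (range 0.361 to 1.35), against 0.493 for the 29 without. H2ac8 and H4c9, the 2 most counted members whose replicate 3 was not low, both had such a signal, but so did H1f2 at 0.466. A run of 6 or more A was present in 10 members, with a median ratio of 0.482, and absent in 25, with 0.607. By chromosome the medians were 0.550 on chromosome 13 (30 genes) and 0.361 on chromosome 3 (5 genes), and both chromosomes held members on either side of 1. None of these splits parted the members cleanly, and none was tested.

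Near-identical copies limit what single genes can show. Of the members with at least 20 counts, 15 share at least 50% of their 50-base words with other gene models, and their median ratio was 0.607. The 20 that share fewer had 0.477. H1f1, H1f5 and H2bc21 share none, and their ratios were 0.367, 0.471 and 1.35. Every 50-base word in the last 300 bases of H1f4 was also found in other gene models, so its counts are uncertain. The annotated span of H2bc6 overlaps that of H1f4 on the same strand, so these shared words need not come from a copy. H4c4 shares 10.2% of its words and none in its last 300 bases, while H2ac4 shares 58.0%.

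Promoters were compared because members of 1 family stood at opposite ends of the range. RefSeq (GRCm38.p6) windows of 300 bases, 250 before to 50 after the start, covered 51 member genes with 52 promoters. They are printed 5′ to 3′ on the gene's strand for the contrasting H2A and H4 genes, with motifs on either strand in capitals. The CCAAT box reads ATTGG on the other strand. The TATA box was searched as TATAAA, which on the other strand is TTTATA. The octamer was searched as ATTTGCAT, which on the other strand is ATGCAAAT. The windows are chr13:23750838-23751137 on the plus strand for H2ac4, chr13:23571171-23571470 on the minus strand for H2ac8, chr13:23581318-23581617 on the plus strand for H4c4 and chr13:22041313-22041612 on the minus strand for H4c9.
H2ac4: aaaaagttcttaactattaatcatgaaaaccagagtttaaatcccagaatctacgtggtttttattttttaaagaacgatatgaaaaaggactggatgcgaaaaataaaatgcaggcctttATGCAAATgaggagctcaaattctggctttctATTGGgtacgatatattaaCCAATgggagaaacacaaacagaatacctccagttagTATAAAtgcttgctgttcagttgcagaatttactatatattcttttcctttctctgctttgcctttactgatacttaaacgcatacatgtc
H2ac8: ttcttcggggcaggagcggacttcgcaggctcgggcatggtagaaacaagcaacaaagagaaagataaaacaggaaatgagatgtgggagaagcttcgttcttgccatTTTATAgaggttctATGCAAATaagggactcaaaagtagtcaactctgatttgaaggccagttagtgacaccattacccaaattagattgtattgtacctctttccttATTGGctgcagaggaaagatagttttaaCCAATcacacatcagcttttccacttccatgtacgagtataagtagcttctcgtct
H4c4: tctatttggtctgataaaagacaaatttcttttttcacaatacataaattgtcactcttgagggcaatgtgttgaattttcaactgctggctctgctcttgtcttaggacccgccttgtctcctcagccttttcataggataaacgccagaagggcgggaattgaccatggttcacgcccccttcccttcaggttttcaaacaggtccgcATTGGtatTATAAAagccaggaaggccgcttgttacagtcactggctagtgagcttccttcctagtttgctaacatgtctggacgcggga
H4c9: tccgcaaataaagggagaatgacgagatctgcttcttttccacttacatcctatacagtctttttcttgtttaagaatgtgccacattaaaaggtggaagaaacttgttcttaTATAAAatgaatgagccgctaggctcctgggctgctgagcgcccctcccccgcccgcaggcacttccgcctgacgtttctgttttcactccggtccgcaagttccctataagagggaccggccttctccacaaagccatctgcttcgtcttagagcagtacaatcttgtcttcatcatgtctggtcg

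In these 4 windows no match overlapped another. H2ac4 and H2ac8, with ratios of 0.0257 and 1.29, both held 2 matches of CCAAT, 1 of TATAAA and 1 of ATTTGCAT when either strand was read. The TATAAA match of H2ac4 was on the gene's own strand, and that of H2ac8 on the other strand only. The H2ac8 window also covers the start of H2bc8, 176 bases away on the plus strand. Which of the 2 genes a match there belongs to was not tested. H4c4 held CCAAT next to a TATAAA match, and H4c9 held TATAAA only. Over the members' promoters CCAAT was found in 86.5%, against 37.4% of all 32851 promoters, and TATAAA in 59.6% against 13.6%. ATTTGCAT, the octamer bound by POU factors, was found in 23.1% against 1.74%. It stood in 6 of 15 H2A and 6 of 13 H2B promoters and in none of H1, H3 or H4. CCAAT was found in every H1, H2A, H2B and H3 promoter matched and in 3 of 10 H4 promoters. A match is a string in the window and not evidence of binding.

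Many H2A and H2B genes start back to back from 1 shared stretch of DNA. Among the members 9 such pairs have starts no more than 500 bases apart, and in 3 of them both genes had at least 20 counts. H2ac11 and H2bc11, 270 bases apart, had ratios of 0.718 and 0.166, but H2ac11 had only 21 counts. H2ac20 and H2bc21, 239 bases apart, had 0.305 and 1.35. H2ac6 and H2bc4, 251 bases apart, had 0.707 and 0.823. The intervals overlap in the first pair (0.206 to 2.05 and 0.0740 to 0.324) and in the third (0.337 to 1.38 and 0.590 to 1.13). Those partners cannot be told apart on these counts. In the second pair they do not meet (0.250 to 0.369 and 0.553 to 3.13), with 27 counts for H2bc21.

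The genes that make, process and use histone mRNA were examined next, with a chi-square test of counts between the parental libraries and Benjamini-Hochberg adjustment over all genes. It called 2.80% of 11118 genes, the members included. Of the 6 lists on histone variants, transcription, 3' end processing, mRNA decay, chaperones and S phase, 122 genes were in the table, 120 were tested and 5 varied. Without replicate 1 it was 2, without replicate 2 it was 7 and without replicate 3 it was 1. Over all genes the test called 311 with every library, and 213, 274 and 61 without replicates 1, 2 and 3 in turn. None of the 6 lists held a gene with at least 20 counts at or under 0.5 in replicate 3. The test compares libraries, not conditions.

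Of the 11 genes that act in histone gene transcription 0 passed the chi-square test, with 1 at an unadjusted p under 0.05, and their median ratio was 0.886. Npat, the coactivator of histone gene transcription, had 17.0, 18.2 and 15.3 CPM. E2f1, Ccne2 and Yy1 had the highest mean CPM of the list. E2f1, a transcription factor of S phase entry, had 138, 147 and 126 CPM, and Ccne2, a cyclin partner of Cdk2, had 105, 108 and 82.9 CPM with an adjusted p of 0.0562. Replicate 3 was the lowest library in Npat, E2f1 and Ccne2, and replicate 1 in Yy1.

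Of the 3' end processing genes 1 of 27 varied, and the median ratio was 1.00. Slbp, the stem-loop binding protein, had 71.8, 68.9 and 56.4 CPM, a ratio of 0.803 and an adjusted p of 0.316 in the chi-square test. Lsm10 and Lsm11, subunits of the U7 particle, had 52.1, 57.7 and 51.7 CPM and 25.9, 25.4 and 22.7 CPM. Replicate 3 was the lowest library in each of the 3, without passing the test. The gene that varied was Snrpd3, an Sm protein, with 713, 653 and 645 CPM and an adjusted p of 0.0132. Snrpf, at 746, 754 and 729 CPM, and Snrpb, at 682, 659 and 663 CPM, were the others of highest level.

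Among 15 mRNA decay genes 1 varied, with a median ratio of 0.960. It was Rc3h1, an RNA-binding protein of mRNA decay, with 13.99, 25.6 and 16.8 CPM and an adjusted p of 0.0406, highest in replicate 2. Lsm1, a subunit of the ring that binds the end of histone mRNA for decay, had 179.5, 166 and 165 CPM. Eri1, an exonuclease that trims the end of histone mRNA, had 161 ± 6.95 CPM (SD, n = 3), and Upf1, a helicase of histone mRNA decay, had 49.4, 39.6 and 48.9 CPM.

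Histone chaperones carry new histones to DNA, and 1 of 23 varied, with a median ratio of 1.03. It was Ssrp1, a subunit of the FACT complex, with 433, 457 and 509 CPM and an adjusted p of 0.00266, highest in replicate 3. Npm1, Set and Nap1l1 had the highest mean CPM. Npm1 had 2224, 2215 and 2236 CPM, the same within a narrow range in all 3 libraries. Asf1b, a chaperone of H3 and H4, had 183, 184 and 174 CPM.

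The replication-independent histone variants, whose mRNAs mostly carry poly(A) tails, are the nearest comparison by protein. Their median ratio was 1.01 over 12 genes, and 2 varied. The list includes H2aw, at a ratio of 1.18 on 56 counts, whose place among the variants was not checked. H1f0, a linker histone typical of non-dividing cells, had 339, 350 and 283 CPM and an adjusted p of 0.000247, lowest in replicate 3. Macroh2a1 had 300, 351 and 373 CPM and an adjusted p of 0.000251, highest in replicate 3. H3f3b, a gene of variant H3.3, had 548, 552 and 569 CPM, Cenpa, the centromeric H3, had 494, 491 and 464 CPM, and H2az1 had 415, 397 and 415 CPM. The linker variant H1f0 stood at 0.822 of the other libraries, a smaller departure than in any of the 5 replication-dependent H1 genes.

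Genes of the cell cycle showed no call between libraries. Of 33 S phase genes 0 passed the chi-square test, with 5 at an unadjusted p under 0.05, and their median ratio was 0.998. Rrm2, a subunit of ribonucleotide reductase, had 585, 593 and 579 CPM, Dut, the dUTPase, had 493, 477 and 471 CPM, and Fen1, the flap endonuclease of lagging-strand synthesis, had 280, 284 and 283 CPM. Of 20 genes of G2 and M phase 0 passed, with 5 at an unadjusted p under 0.05, and their median ratio was 1.01. Cenpe, Top2a and Cdk1 had the highest mean CPM, and Top2a had 485, 523 and 475 CPM. Over the 6 lists together, 25 of 120 genes had an unadjusted p under 0.05 in the chi-square test. The share of all tested genes under that limit was not counted, so nothing is read from the unadjusted numbers given here and above.

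RNAs that mostly lack a poly(A) tail were set beside the members, since the members' usual mRNA lacks one too. Of 11 tested, 5 varied, and the median ratio was 0.985. Rn7sk, the RNA of the 7SK particle, had 38.7, 27.4 and 10.3 CPM and an adjusted p of 1.1e-09 in the chi-square test. Rny3, a Y RNA, had 30.1, 37.1 and 11.8 CPM and an adjusted p of 1.1e-07. Both were lowest in replicate 3. Rny1, another Y RNA, was highest there, with 55.7, 44.8 and 70.1 CPM and an adjusted p of 0.00233, and so was the nuclear RNA Malat1, with 2673, 2242 and 2975 CPM. Rpph1, the RNA of ribonuclease P, had 24.4, 12.7 and 22.1 CPM. Rn7sk, Rny3 and mt-Rnr1 were thus low in the same library as the members, and the part of whatever lowered them in the members' levels was not tested.

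**Figure D5:**
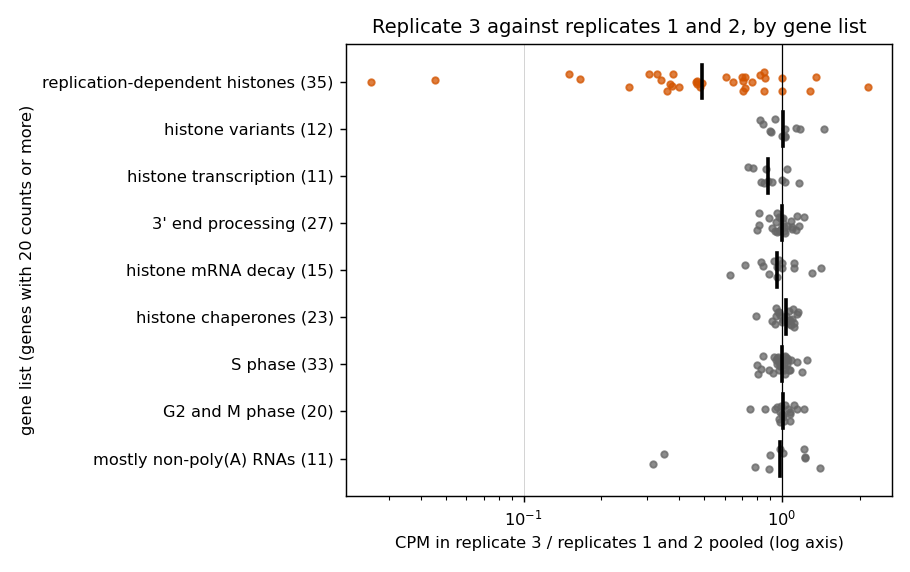
Ratio of CPM in replicate 3 to replicates 1 and 2 pooled (log axis) for each gene with at least 20 counts of the member set and of 8 lists, with the median as a black bar. The members have a median of 0.493 and the other medians lie between 0.886 and 1.03, with Rn7sk and Rny3 the 2 low points of the last list.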

How the data were processed

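Per the labels' protocols, RNA from cultured MC38 cells was primed with barcoded oligo-dT carrying molecular identifiers, and 3' end fragments were sequenced. The deposited values are raw counts of each gene, all whole numbers, obtained by the authors from untrimmed reads. Per the file headers they used the aligner STAR (2.7.5b), Picard (2.18.26) and Drop-seq tools (1.12) with GRCm38 and GENCODE M25. The treatment of molecular identifiers and of reads that match more than 1 gene was not given in these sources, so splitting between copies may affect single genes.

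3 columns named as wild type with a replicate number were matched to the 3 parental samples. 6 further columns were not used, because they form 2 sets and no label says which set the 3 STING-N153S samples are. The planned edgeR comparison of STING-N153S with parental cells was therefore not run.

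Members and gene lists were chosen with earlier results of these data known. For that reason the members' own calls between libraries are not given, though the members were among the genes tested and adjusted. Named genes are members with at least 100 counts, members of few counts, the 3 highest and the extreme ratios of each family, and the 3 highest and every varying gene of each list; a few others, and the sequence features, were added with values in view. A gene that the rule takes is not reported here. Intervals are exact (Clopper-Pearson, 95%). The chi-square test used median-ratio scaling, genes whose expected count reached 5 in every library, and a false discovery rate of 0.05 in Python 3.11.15 with scipy 1.17.1 and statsmodels 0.14.6. For the alternatives, TMM scaling came from edgeR 4.0.16 and size factors from DESeq2 1.42.0 in R 4.3.3. The chi-square test was also run on simulated Poisson counts for 24181 genes over the parental libraries, with 200 genes changed in a single library each. It recovered 32.0%, 65.5% and 86.0% of genes changed 1.5-fold, 2-fold and 4-fold, and 4.48%, 5.76% and 6.01% of its calls were false. These counts held no spread between libraries beyond counting error, so the shares do not describe calls on the real libraries.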

Additional observations from a re-analysis of the deposited data

How the results depend on the processing

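The alternatives were scaling by TMM or median ratios, and totals without the members or without the 20 highest genes. Other count limits and other test settings were also tried. Together they gave 56 values besides those with a library left out, and 54 kept within the limit for their kind. For summed CPM the limit was the SD between replicates, and for ratios the exact counting interval. For numbers of genes it was 1.5 times the count reported. The low replicate 3 itself widened the SD of the sums, to 989 on 2760 CPM for all members and 620 on 1407 CPM for H1. It was 302 on 470 CPM for H4 and 17.3 on 57.6 CPM for H2B. Rescaling could hardly move these sums past it, so their staying within it says little. The TMM and median-ratio factors lay between 0.994 and 1.006, so these scalings could hardly move the ratios either. The summed H2A level had a mean of 863.5 CPM with totals without the 20 highest genes, against 784, and 15 of 17 members with at least 100 counts were lowest in replicate 3, against 29 of 35 with at least 20. With at least 10 counts it was 36 of 47, and with at least 30 it was 24 of 29. The alternatives for the ratio of replicate 3 were chosen after seeing the data. Leaving out 1 library moved the mean summed CPM over 2449 to 3330 for all members (3330 without replicate 3), 1204 to 1764 for H1, 766 to 810.5 for H2A, 51.9 to 67.6 for H2B, 38.0 to 43.4 for H3 and 381 to 644 for H4. The ratio moved over 0.479 to 0.494 for all members, 0.382 to 0.405 for H1, 0.891 to 0.912 for H2A, 0.545 to 0.570 for H2B, 0.770 to 0.891 for H3 and 0.188 to 0.190 for H4. Of the genes of the 6 pathway lists, 5 varied between libraries, 2 without replicate 1, 7 without replicate 2 and 1 without replicate 3. The calls over all genes at the same settings were 311, 213, 274 and 61. With a library left out, fewer samples were tested. No paired analysis was possible because the STING-N153S samples could not be tied to columns, and for the same reason the alternatives planned for that comparison (DESeq2, no filter, leaving out replicates, a replicate block) were not run. Depth limits the 24 members under 20 counts.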

Other observations

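Genes outside the histone families with as large a gap in replicate 3 were few. Of 7688 other genes with at least 100 counts, 10 had replicate 3 at or under 0.5 of replicates 1 and 2: Igfbpl1, Rn7sk, Rny3, Zfp507, Hspa13, Gm14681, Tpra1, Stil, Prrc2a and Stat6. Together with the members they make up 0.260% of all genes with that many counts. Hspa13, a heat shock protein of the HSP70 family, had 57.5, 53.7 and 24.6 CPM, a ratio of 0.444. Prrc2a had 61.0, 55.2 and 27.7 CPM, a ratio of 0.479, and Stat6, the transcription factor of interleukin-4 signalling, had 13.99, 17.4 and 7.79 CPM. None of the 10 had a ratio as small as that of H4c4 or H2ac4.

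Histone genes whose symbols fall outside the rule were counted at low levels. H4f16 had 4.47, 4.48 and 3.12 CPM, H2aw had 6.25, 3.98 and 5.92 CPM and the pseudogene H2ac5-ps had 3.57, 2.99 and 5.30 CPM. Of these only H4f16 was lowest in replicate 3, on 43 counts.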
